A study of Mus musculus with 18 samples.

Results

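Tex14 (ENSMUSG00000010342.16) lies on chromosome 11 of the mouse genome, chr11:87405065-87555823 on the plus strand (GRCm38, GENCODE M21), and has 31 exons in its principal transcript. All positions that the deposited table assigns to Tex14 were taken, which gave 360 of the 1825851 positions of the table, 296 of them with at least 1 count. The repeated positions were chosen by their counts: a position with at least 10 counts in all, and the same count as another Tex14 position in each of the 9 libraries, was taken as a copy of a multi-copy RNA. This gave 5 repeated sets that cover 15 positions, and the remaining 345 positions were taken as the rest of the gene. The split is therefore a description, and its rule does not use the genotypes. Tex14 and its sets were, however, chosen with earlier results of these data known. The highest identical set just outside the minimum had 7 counts (U3 position 98) and the lowest inside it had 10.

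The counts are 3′ ends of RNA fragments from ribose oxidation sequencing (RibOxi-seq) of 4T1 cells, a mouse breast cancer cell line. The assay relies on periodate chemistry, which needs a free 2′ hydroxyl at the last ribose, so a 2′-O-methyl group keeps a 3′ end open to linker ligation. The groups were 4T1 WT, Snord67KO-1 (the first clone) and Snord67KO-2 (the second clone), with 3 oxidized libraries each from 3 biologic replicates. Snord67 is a box C/D snoRNA, which guides methylation of the spliceosomal U6 RNA. All 3 groups carry lentiviral mCherry and Renilla luciferase and were grown in puromycin, and each knockout group is 1 clone made by CRISPR/Cas9 deletion, so an effect of the deletion and a property of the clone cannot be told apart. Poly(A)-enriched RNA was used, although mature U3 and U1 RNAs lack poly(A) tails. The unoxidized control libraries were not analysed here, so the 3′ ends that remain without oxidation are not known for these positions. Total counts per library ranged from 212463 to 737219, with the 3 lowest totals in Snord67KO-2. Positions marked as mispriming in the table held 17.8% of the counts in 4T1 WT replicate 2, the highest share, and 1.38% to 7.22% in the other libraries. All 8 breast epithelial markers had counts, with a summed level of 435 to 1015 CPM, the counts at a position or gene per 1000000 counts of the library. Of 12 male germ cell markers, 5 had 0 counts in every library (Dazl, Tex101, Prm1, Prm2 and Tnp1), and the summed level of the list was 0 to 44.5 CPM.

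The TEX14 protein is known for its role in the intercellular bridges of male germ cells. Its introns also hold gene copies of other RNAs. U3 is a box C/D snoRNA that does not guide methylation but is needed for early cleavages of the ribosomal RNA precursor, where it base-pairs with the precursor as part of the small subunit processome. U1 is the small nuclear RNA that recognises the 5′ splice site. In human U1, the adenosine at position 70 is a known 2′-O-methylated nucleotide.

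The 15 repeated positions fell in annotated copies of these RNAs. There were 4 copies of U3 in intron 2 of Tex14, namely Rnu3b1 (chr11:87443237-87443452), Rnu3b3 (chr11:87448627-87448842), Rnu3b4 (chr11:87462286-87462501) and Rnu3b2 (chr11:87471368-87471583). There were 2 copies of U1 in intron 1, Rnu1a1 (chr11:87422867-87423030) and Gm22068 (chr11:87426716-87426879). All 6 lie on the plus strand. The 4 U3 copies have the same 216 bases and the 2 U1 copies the same 164 bases in the genome, so a read from 1 copy cannot be assigned among them. The sequences of 1 copy of each RNA are shown because they locate the repeated 3′ ends, with the end positions of the repeated sets in capitals (GRCm38 sequence of GENCODE M21 genes, plus strand, positions counted from 1 at the annotated 5′ end).
Rnu3b1: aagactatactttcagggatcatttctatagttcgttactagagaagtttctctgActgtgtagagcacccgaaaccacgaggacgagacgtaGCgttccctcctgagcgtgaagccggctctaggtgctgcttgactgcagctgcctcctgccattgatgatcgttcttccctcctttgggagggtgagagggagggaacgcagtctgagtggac
Rnu1a1: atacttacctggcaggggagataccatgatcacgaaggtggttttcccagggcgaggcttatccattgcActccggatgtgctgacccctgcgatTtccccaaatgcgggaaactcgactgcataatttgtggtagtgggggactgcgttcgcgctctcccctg

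In U3 the capitals mark positions 56, 94 and 95, and in U1 they mark positions 70 and 96. The letters TGATGA of a box C were found in U3 at positions 157 to 162, and the letters CTGA of a box D at positions 53 to 56, 104 to 107 and 207 to 210, in a search of the RNA strand only. Of 1507 annotated snoRNA transcripts of any length, 26.1% held TGATGA and 79.5% held CTGA. Position 56 is the last base of the first CTGA. The 6 bases after it, ctgtgt, match the start of the 3′ linker used for the libraries at 4 of 6 bases, against 1 of 6 at position 95 and 3 of 6 at position 70 of U1.

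Another U3 gene, Rnu3a on chromosome 10, differs from Rnu3b1 at 5 of the first 95 bases, namely C34T, C85G, G91A, T92G and C95T (base of Rnu3b1 first, positions from the 5′ end). The bases from position 80 to position 110 of both genes are shown because they hold the leading 3′ end, with position 95 in capitals (Rnu3b1 chr11:87443316-87443346, Rnu3a chr10:40258546-40258576, GRCm38, plus strand).
Rnu3b1 window: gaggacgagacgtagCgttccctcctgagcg
Rnu3a window: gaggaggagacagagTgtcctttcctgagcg
No row of the table lies in Rnu3a.

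Nearly all Tex14 counts came from these copies. Of 3279 deposited counts, 3212 (98%) lay inside the U3 and U1 genes, and 2814 (85.8%) lay at the 15 repeated positions. With each set counted 1 time, the 2814 counts were 777. Outside the U3 and U1 genes, 67 counts were spread over 66 positions, with no more than 2 counts at any of them. A single count lay in a Tex14 exon (exon 22), and the other 66 lay in introns. Of the 67, 16 lay within 100 bases upstream of a U3 copy, at 4 distances that were the same for all 4 copies. The table therefore holds almost no 3′ ends that can be placed in the mature Tex14 mRNA.

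**Figure D1:**
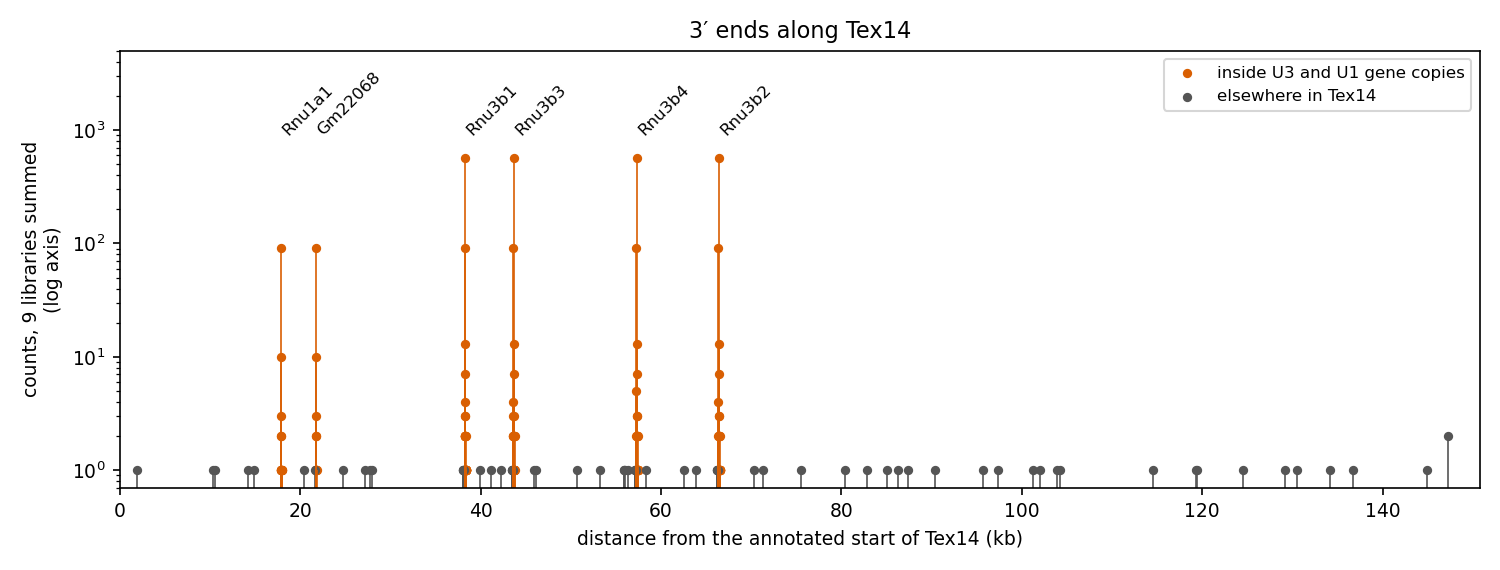
Counts summed over the 9 libraries at each Tex14 position with counts, by distance from the annotated start of the gene, on a log axis. The 4 U3 copies reach the same height of 571 counts and the 2 U1 copies reach 91, while positions elsewhere hold 1 or 2 counts.

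The rest of the gene was not free of these RNAs. It held 465 counts, of which 67 lay outside the U3 and U1 genes and 91 came from U3 position 56 of Rnu3b4 (87462341). This position differed from the other 3 copies by 1 count in Snord67KO-1 replicate 2, where it had 17 counts and they had 18, while position 58 of Rnu3b4 had 1 count more than in Rnu3b1. The next positions of the rest were the 4 copies of U3 position 98, with 7 counts each. They had 0 counts in each 4T1 WT library, 1, 1 and 2 in Snord67KO-1, and 0, 2 and 1 in Snord67KO-2. Minor U3 and U1 positions enter the rest with every copy. For this reason the rest is also given without 87462341, and the positions outside the U3 and U1 genes are given as a further measure. Both measures were added after the data had been seen.

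Along 1 copy of U3, 745 counts fell at 51 of 216 positions, between position 49 and position 213. Position 95, a cytidine, held 76.6% of them and position 56, an adenosine, held 12.3%. Position 94 held 13 counts, and the 48 other positions held 69 counts together, at most 7 each. Along 1 copy of U1, 116 counts fell at 13 positions, with 78.4% at position 70 (an adenosine) and 8.62% at position 96. In the whole table, 281 positions had more counts than U3 position 95, 55 of them in the ribosomal RNA gene Rn45s. Identical sets within a gene were found 91 times in 24 genes, and only 1 of these sets had more counts than U3 position 95.

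**Figure D2:**
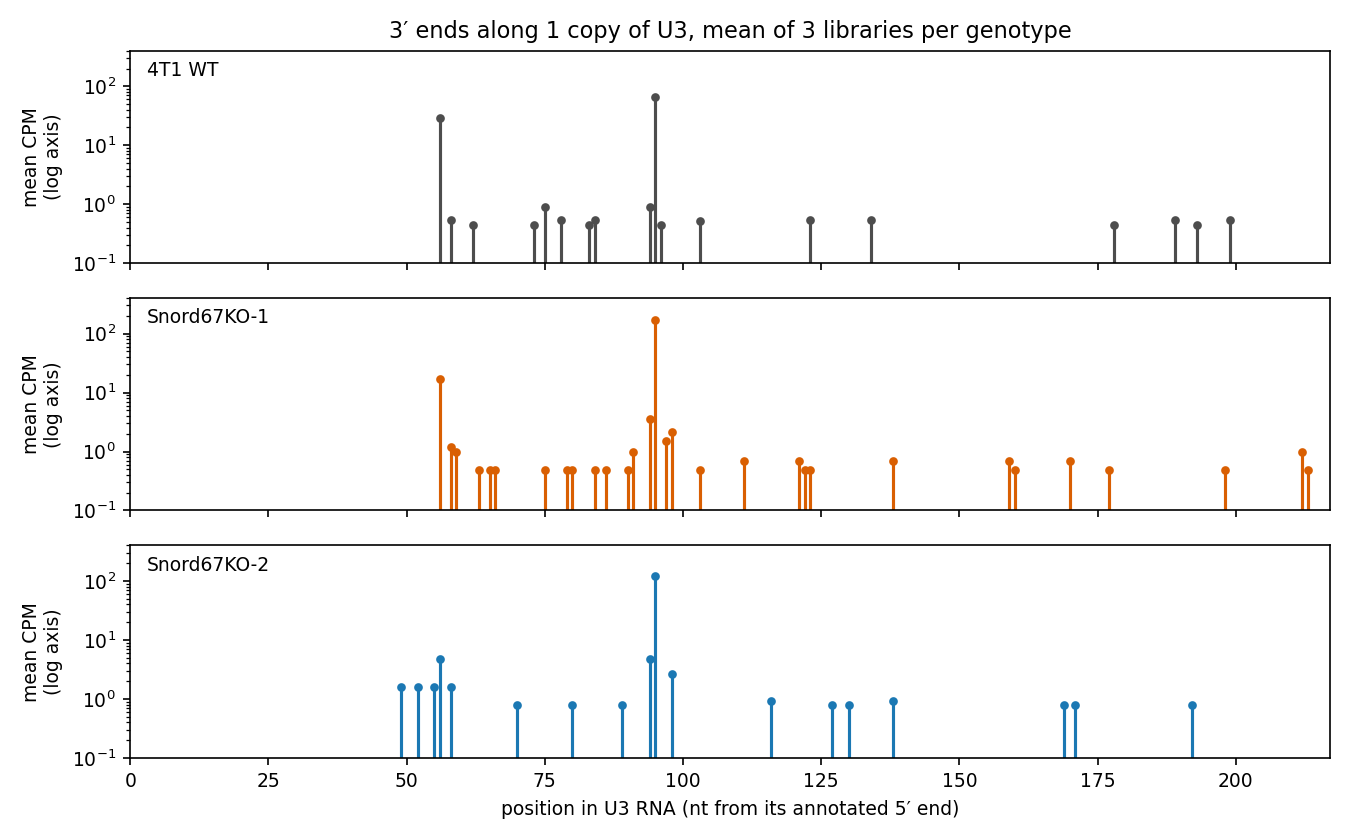
Mean CPM of 3 libraries per genotype at each position of 1 U3 copy, on a log axis, with positions at 0 left out. Position 95 is the highest in each genotype, at 66.3 CPM in 4T1 WT, and at 168 and 122 in the first and second clone, and position 56 is next in 4T1 WT and Snord67KO-1.

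U3 position 95 was the leading repeated position (87443331, 87448721, 87462380 and 87471462 in the 4 copies). It had 37, 45 and 49 counts in 4T1 WT, 127, 69 and 120 in Snord67KO-1, and 24, 47 and 53 in Snord67KO-2. In CPM this was 50.2, 70.4 and 78.4 in 4T1 WT, 189, 140 and 175 in Snord67KO-1, and 113, 127 and 125 in Snord67KO-2. All 6 knockout libraries were above all 3 WT libraries, and all 3 Snord67KO-1 libraries were above all Snord67KO-2 libraries. The mean ± SD over 3 libraries was 66.3 ± 14.5 CPM for 4T1 WT, 168 ± 24.8 for Snord67KO-1 and 122 ± 7.81 for the other clone. A position entered the tests when 3 or more libraries had 10 or more counts each, which 2092 positions did, among them 10 of the 360 in Tex14. Of the 2092, 20 (0.956%) had every knockout library above every WT library in CPM, and the 4 copies of U3 position 95, which hold the same counts and are 1 measurement, were 4 of these 20. The 3 Snord67KO-1 libraries alone were above every WT library at 1.58% of positions, and the 3 Snord67KO-2 libraries at 4.06%.

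The difference at U3 position 95 was not called by the test across positions. With edgeR's quasi-likelihood test over the 2092 positions, position 95 had a log2 difference from 4T1 WT of 1.42 (SE 0.37, Benjamini-Hochberg adjusted p = 0.471) when both clones were averaged, and it ranked 10 of 2092 by p. In Snord67KO-1 the log2 difference was 1.69 (SE 0.41, adjusted p = 0.376) and in Snord67KO-2 it was 1.14 (SE 0.41, adjusted p = 0.403) by the same test. The log2 difference between the clones, Snord67KO-2 minus Snord67KO-1, was -0.55 (SE 0.40, adjusted p = 0.878). In this test 1 position (0.0478%) was called in each comparison with 4T1 WT, none of them in Tex14, while the share of positions with an unadjusted p under 0.05 was 9.42% with the clones averaged, 3.44% for the first clone and 12.3% for the second. Between the clones 0 positions were called (0.0%), and 2.49% had an unadjusted p under 0.05. DESeq2, used as an alternative, gave position 95 an adjusted p of 0.000215 when the clones were averaged, where it called 12 positions (0.574%). For the single clones its adjusted p was 0.000315 in Snord67KO-1 and 0.0296 in Snord67KO-2, where it called 0.574% and 1.15% of positions. The call at this position therefore depended on the tool, while the direction was the same in both.

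U3 position 56 had a different pattern, which was not shared by all WT libraries. It had 17, 37 and 4 counts in 4T1 WT, 8, 18 and 2 in Snord67KO-1, and 0, 0 and 6 in Snord67KO-2. In CPM the WT libraries had 23.1, 57.9 and 6.40, the Snord67KO-1 libraries 11.9, 36.6 and 2.91, and the Snord67KO-2 libraries 0, 0 and 14.2, where 0 counts allow up to 14.1 and 8.14 CPM. The groups overlapped, and 1 WT library was below 3 of the knockout libraries. By replicate number, each Snord67KO-1 library was below the 4T1 WT library of the same number, but whether the numbers pair the samples is not known. The log2 difference of the average was -1.20 (SE 0.89, adjusted p = 0.595 by edgeR's quasi-likelihood test). The 3 libraries with the highest level at position 56, namely 4T1 WT replicate 2, Snord67KO-1 replicate 2 and 4T1 WT replicate 1, were also the 3 with the largest share of counts at mispriming positions, at 17.8%, 7.22% and 5.08%. The 3 with the lowest level, Snord67KO-2 replicates 1 and 2 and Snord67KO-1 replicate 3, had the 3 smallest shares, between 1.38% and 2.06%. None of the U3 positions at 56 is marked as mispriming in the table, and the part of mispriming in this level was not tested.

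U1 position 70 (87422936 and 87426785) was highest in Snord67KO-1. It had 8, 1 and 10 counts in 4T1 WT, 19, 9 and 30 in Snord67KO-1, and 0, 6 and 8 in Snord67KO-2. The mean ± SD over 3 libraries was 9.47 ± 7.31 CPM for 4T1 WT, 30.1 ± 12.8 for Snord67KO-1 and 11.7 ± 10.2 for the other clone. The lowest Snord67KO-1 library, at 18.3 CPM, was above the highest WT library, at 16 CPM, and Snord67KO-2 overlapped with both. The log2 difference in Snord67KO-1 was 1.94 (SE 0.85, adjusted p = 0.999 by edgeR's quasi-likelihood test) and in Snord67KO-2 it was 0.64 (SE 0.93, adjusted p = 0.758). The same counts stand at 1 position of Ss18. U3 position 94 had 2, 0 and 0 counts in 4T1 WT, 1, 3 and 2 in Snord67KO-1, and 1, 1 and 3 in Snord67KO-2. U1 position 96 had 3, 0 and 3 counts in 4T1 WT, 1, 1 and 2 in Snord67KO-1, and none in Snord67KO-2, and the same counts also stand in Atr, Dao, Rock1 and Ss18. Both were too low for the test across positions.

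**Figure D3:**
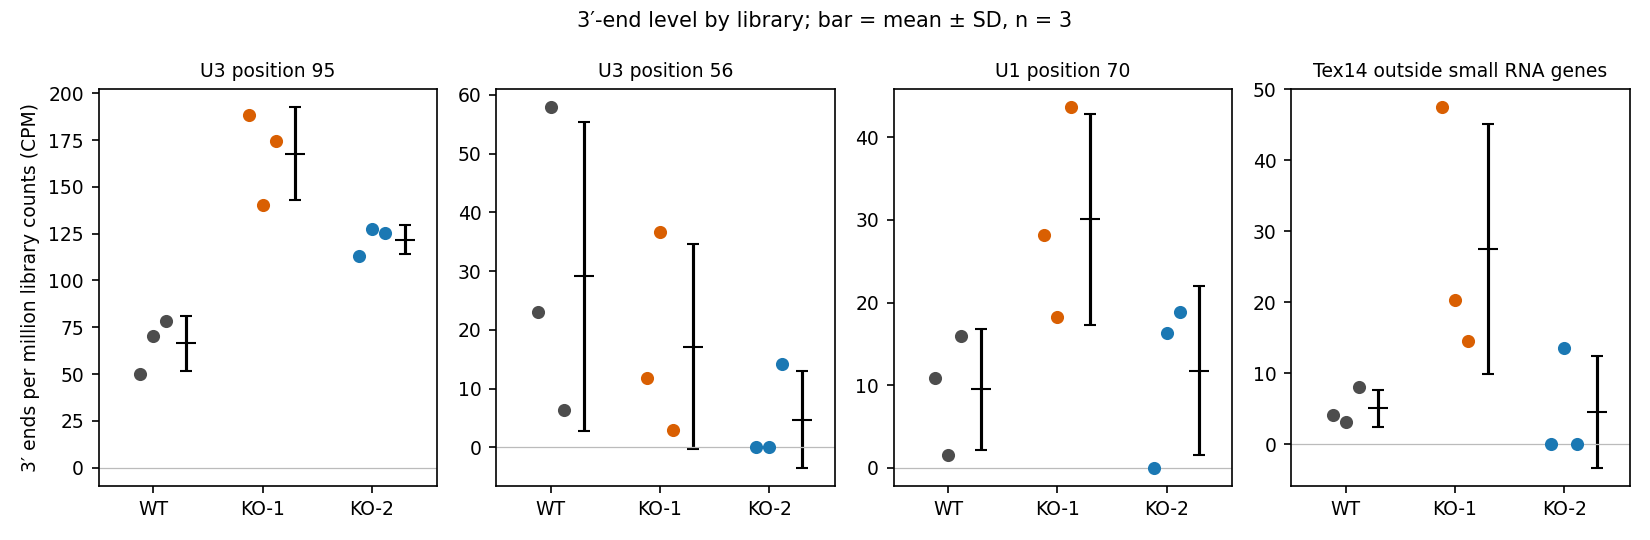
CPM of each library at U3 position 95, U3 position 56 and U1 position 70, and summed outside the U3 and U1 genes, with mean ± SD of 3 libraries beside the points. At U3 position 95 the 6 knockout libraries lie between 113 and 189 CPM, above the 3 WT libraries, and in the other panels at least 1 knockout group overlaps with 4T1 WT.

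The 5 repeated sets were summed, each set counted 1 time, to compare the genotypes. The sum was 90.9, 130 and 106 CPM in 4T1 WT, 232, 203 and 227 in Snord67KO-1, and 118, 146 and 165 in Snord67KO-2. Of the 6 knockout libraries, 5 were above all WT libraries, and Snord67KO-2 replicate 1 lay within the WT range. The mean ± SD was 182 ± 46.1 CPM over the 6 knockout libraries and 109 ± 19.7 over the 3 WT libraries, with p = 0.0476 in a two-sided exact permutation test, or 0.24 after adjustment over the 12 tests of this kind. The smallest p that 6 against 3 libraries allow is 0.0238. For Snord67KO-1 alone the mean was 221 ± 15.2 CPM (SD, n = 3), with p = 0.1, the smallest that 3 against 3 libraries allow in the exact test. For Snord67KO-2 alone it was 143 ± 24 CPM (SD, n = 3), with p = 0.2 in the exact test.

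In a test across gene totals, the repeated sets rose for the average of the clones and in Snord67KO-1. With the repeated sets and the rest of Tex14 as separate rows among 6296 genes with enough counts, the log2 difference of the repeated sets was 0.77 (SE 0.18, adjusted p = 0.0134 by edgeR's quasi-likelihood test) for the average of both clones, where 12.1% of all genes were called (6.19% higher and 5.86% lower). It was 0.89 (SE 0.20, adjusted p = 0.00627) in Snord67KO-1, where 18.3% of all genes were called (10.1% higher and 8.2% lower), and 0.64 (SE 0.21, adjusted p = 0.109) in Snord67KO-2, where 3.18% were called (2.43% higher and 0.747% lower). The clones did not differ by the test, with a log2 difference of -0.25 (SE 0.21, adjusted p = 0.597), so a larger rise in 1 clone was not shown. Between the clones 3.99% of all genes were called, 1.79% higher and 2.19% lower in Snord67KO-2. The repeated sets ranked 298 of 6296 by p when the clones were averaged. Without 4T1 WT replicate 1, the library with the lowest level of U3 position 95, the adjusted p of the average was 0.0654, and without the filter on low counts it was 0.0741.

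The rest of Tex14 was compared in the same way. It had 84.1, 67.3 and 59.2 CPM in 4T1 WT, 157, 126 and 108 in Snord67KO-1, and 75.3, 62.4 and 99.2 in Snord67KO-2. All 3 Snord67KO-1 libraries were above all WT libraries, and Snord67KO-2 overlapped with 4T1 WT. Unlike the repeated sets, the rest holds every copy of the minor U3 and U1 ends. Counts that repeat across the copies thus enter the tests below as if they were separate. The tests were not repeated with each such end counted 1 time. The p of the exact permutation test was 0.143 for both clones, 0.1 for Snord67KO-1 and 0.6 for Snord67KO-2. In the test across gene totals the log2 difference was 0.74 (SE 0.23, adjusted p = 0.0374 by edgeR's quasi-likelihood test) in Snord67KO-1 and 0.39 (SE 0.26, adjusted p = 0.448) in Snord67KO-2. This call rested on single libraries: the adjusted p in Snord67KO-1 was 0.0928 without 4T1 WT replicate 2, 0.0562 without 4T1 WT replicate 3, 0.131 without Snord67KO-1 replicate 1 and 0.07 without Snord67KO-1 replicate 2. Position 87462341 was also left out, after the data had been seen. The rest then had a mean of 94.1 CPM in the knockout libraries and 61, 9.39 and 52.8 CPM in the WT libraries. Every knockout library was above every WT library, but the lowest, Snord67KO-2 replicate 2, was only at 62.4 CPM. The exact permutation p was 0.0238, the smallest possible, and is not among the 12 adjusted tests. The position left out had a mean of 29.1 CPM in 4T1 WT and 10.6 in the knockout libraries. Leaving it out therefore lowers 4T1 WT more by itself.

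No difference between genotypes was detected when the repeated sets were set against the rest of the gene. This comparison cannot show a change of U3 as a whole. The rest is mostly other U3 and U1 ends, with 67 of its 465 counts outside these genes. A change shared by all U3 ends would therefore largely cancel, in the ratio and in the offset below. The log2 ratio of repeated to rest had a mean ± SD of 0.63 ± 0.45 over the 3 WT libraries and of 0.81 ± 0.26 over the 6 libraries of the clones, with p = 0.452 by the exact permutation test. Without position 87462341 in the rest, the mean log2 ratio was 1.75 in 4T1 WT and 0.95 in the knockout libraries (exact permutation test, p = 0.571). This WT mean came from replicate 2, with a ratio of 3.68 on 6 counts in the rest, against 0.57 and 0.99 in replicates 1 and 3. Without replicate 2 the WT mean was 0.78, below that of the knockout libraries (exact permutation test, p = 0.357). With an offset from the remaining counts of each gene, over 2051 positions, 0 positions were called (0.0%) in each comparison by edgeR's quasi-likelihood test, while an unadjusted p under 0.05 was found at 359 positions with the clones averaged, 111 for the first clone and 351 for the second. U3 position 95 had a log2 difference of 0.55 (SE 0.37, adjusted p = 0.432) when the clones were averaged, and U3 position 56 had -2.16 (SE 0.90, adjusted p = 0.274) in 3 copies, where the rest still holds the Rnu3b4 copy of this position. The Rnu3b4 copy itself, whose rest does not hold it, had -4.03 (SE 1.24, adjusted p = 0.268).

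U3 as an annotated gene was higher in the knockout libraries, and rose by the test for the average of the clones and in Snord67KO-1. The counts of 1 U3 copy were 86.8, 130 and 96 CPM in 4T1 WT, 224, 197 and 201 in Snord67KO-1, and 136, 141 and 168 in Snord67KO-2. All 6 knockout libraries were above all WT libraries, as was the case for 272 of the 6296 genes tested (4.32%). For the 3 libraries of 1 clone this held for 20.5% of genes in Snord67KO-1 and 6.07% in Snord67KO-2. The log2 difference of U3 was 0.82 (SE 0.18, adjusted p = 0.00858 by edgeR's quasi-likelihood test) for the average, 0.87 (SE 0.20, adjusted p = 0.0064) in Snord67KO-1 and 0.76 (SE 0.21, adjusted p = 0.0574) in Snord67KO-2. The calls for the average and for Snord67KO-1 held with any 1 library left out, with an adjusted p of at most 0.0466 and 0.035, both without 4T1 WT replicate 1. Without 4T1 WT replicate 3 the adjusted p in Snord67KO-2 was 0.0364. U1 had a log2 difference of 1.16 (SE 0.56, adjusted p = 0.167) in Snord67KO-1 and 0.13 (SE 0.73, adjusted p = 0.956) in Snord67KO-2. This arrangement of the rows was added after the data had been seen. From oxidized libraries alone, more RNA and a larger share of protected 3′ ends cannot be told apart. In bulk RNA, neither can more RNA per cell and more cells that hold it. Carry-over of RNA without poly(A) tails was not tested either. Rn45s held 19.3% to 26.8% of the counts in 4T1 WT, 22.1% to 24.4% in Snord67KO-1 and 26.4% to 32.4% in Snord67KO-2.

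The positions of Tex14 outside the U3 and U1 genes were higher in Snord67KO-1. They had 3, 2 and 5 counts in 4T1 WT, 32, 10 and 10 in Snord67KO-1, and 0, 5 and 0 in Snord67KO-2. Unlike the repeated sets, these sums hold every copy, so the 16 counts just upstream of the U3 copies repeat the same ends in all 4 copies. Those ends came from Snord67KO-1 replicates 1 and 2 and Snord67KO-2 replicate 2, and from no 4T1 WT library. The test below was not repeated with them counted 1 time. The levels were 3.13 to 8.0 CPM in 4T1 WT and 14.6 to 47.5 in Snord67KO-1, which did not overlap, while 2 of the 3 Snord67KO-2 libraries had 0 counts. In the test across gene totals the log2 difference was 2.28 (SE 0.64, adjusted p = 0.0213 by edgeR's quasi-likelihood test) in Snord67KO-1 and 0.19 (SE 1.05, adjusted p = 0.952) in Snord67KO-2. The row entered this test only because all 3 Snord67KO-1 libraries reached 10 counts, which no other library did. The call therefore does not stand as support for a rise in that clone. When a library was left out, the row was kept in the test whatever its counts. The call in Snord67KO-1 was lost without Snord67KO-1 replicate 1, which holds 32 of the 52 counts (adjusted p = 0.163), and also without 4T1 WT replicate 1 (adjusted p = 0.0729) or 4T1 WT replicate 2 (adjusted p = 0.0533). The difference between the clones was -2.08 (SE 0.80, adjusted p = 0.162). Marker lists of several cell types moved with this measure. The breast epithelial markers summed to 435 to 866 CPM in 4T1 WT and 932 to 1015 in Snord67KO-1, without overlap, and to 762 to 895 in Snord67KO-2. The fibroblast markers (6 of 7 with counts, Lum at 0) summed to 1.57 to 8.14 CPM in 4T1 WT and 13.1 to 26.7 in Snord67KO-1, and the endothelial markers (4 of 4) to 4.70 to 8.0 and 14.6 to 41.6. The male germ cell markers summed to 13.6 to 20.3 CPM in 4T1 WT and 23.3 to 44.5 in Snord67KO-1. In Snord67KO-2 the fibroblast, endothelial and germ cell lists summed to between 0 and 35.4 CPM. The part of these shifts in the result was not tested.

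**Figure D4:**
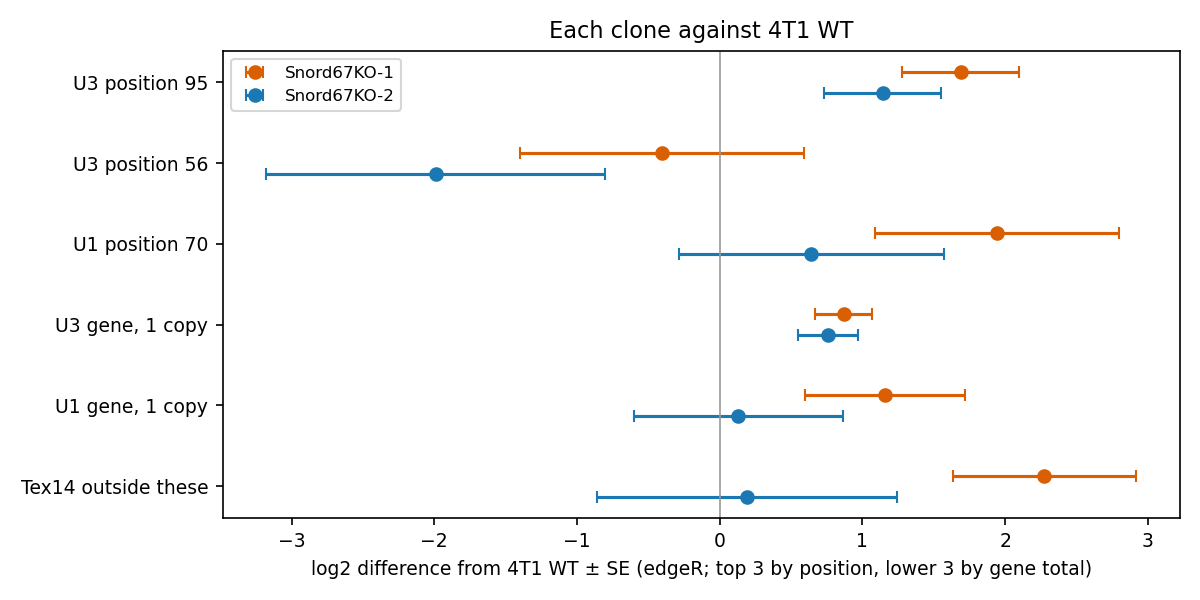
Log2 difference of each clone from 4T1 WT with its SE (edgeR), for 3 positions tested among 2092 positions and for the U3 gene, the U1 gene and the Tex14 positions outside them tested among gene totals. U3 position 95 and the U3 gene lie above 0 in both clones, at 1.69 and 1.14 and at 0.87 and 0.76, while Tex14 outside these genes lies at 2.28 in Snord67KO-1 and 0.19 in Snord67KO-2.

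The share of the leading position among the repeated counts was also compared. Position 95 held 55.2%, 54.2% and 74.2% of the repeated counts in 4T1 WT, 81.4%, 69% and 76.9% in Snord67KO-1, and 96%, 87% and 75.7% in Snord67KO-2. Of the 6 knockout libraries, 5 were above all WT libraries. The mean ± SD was 61.2% ± 11.3 over the 3 WT libraries and 81.0% ± 9.49 over the 6 knockout libraries, with p = 0.0476 in the two-sided exact permutation test, or 0.24 adjusted over the 12 tests. Among all counts of 1 U3 copy, position 95 held 64.6% in 4T1 WT and 81.7% in those of the clones (exact permutation test, p = 0.0714). When position 56 was left out of the U3 counts, position 95 held 88.0% in 4T1 WT and 86.5% in those of the clones (exact permutation test, p = 0.762). The lower share of position 95 in 4T1 WT went with a higher share of position 56, which was 26.6% (95% Wilson interval 17.3% to 38.5%) in 4T1 WT replicate 1 and 44.6% (34.4% to 55.3%) in replicate 2, but 6.67% (2.62% to 15.9%) in replicate 3. In Snord67KO-2 replicates 1 and 2, position 56 had 0 of 29 and 0 of 52 U3 counts, with upper 95% Wilson bounds of 11.7% and 6.88%. By the limit of 3 counts, 0 counts allow a share of up to 10.3% and 5.77%.

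**Figure D5:**
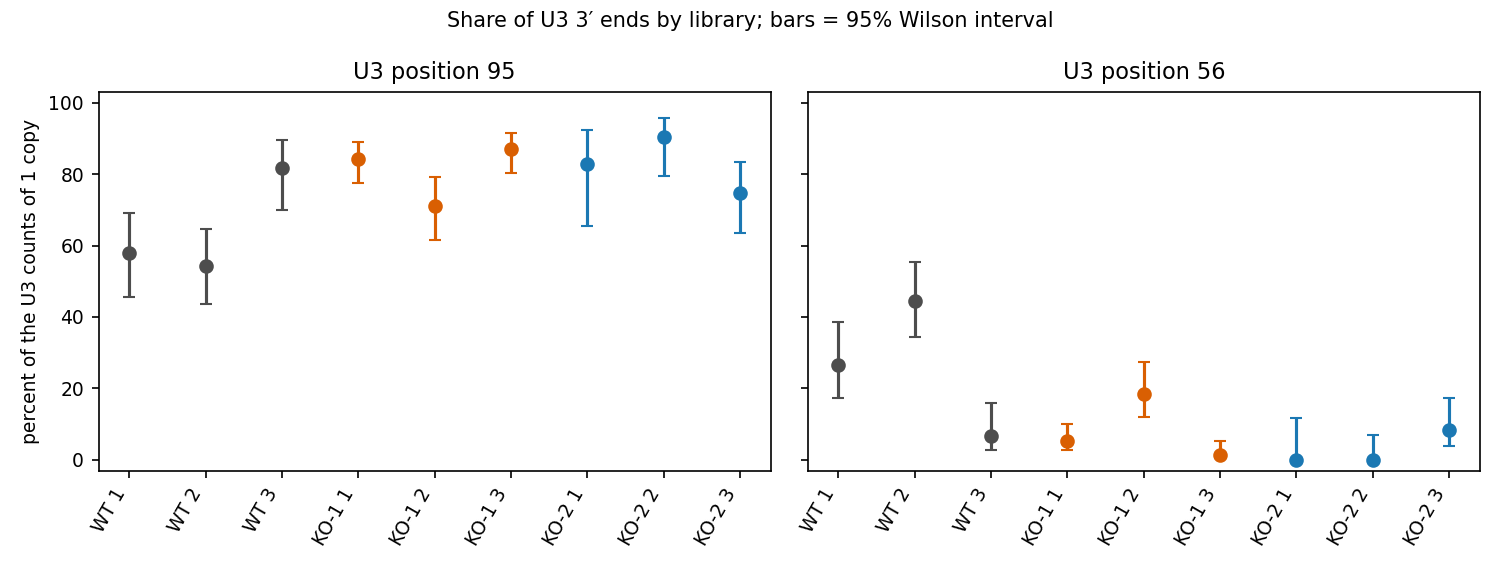
Percent of the counts of 1 U3 copy at position 95 and at position 56 in each library, with 95% Wilson intervals that cover counting error only. 4T1 WT replicates 1 and 2 have 57.8% and 54.2% at position 95, below the other 7 libraries, and 26.6% and 44.6% at position 56, above them.

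The Nm score divides the count of a position by the mean of its 2 neighbors, with 0 set to 1. At U3 position 95 it was 24.7, 45 and 49 in 4T1 WT, 127, 34.5 and 80.0 in Snord67KO-1, and 24, 47 and 26.5 in Snord67KO-2, and the groups overlapped. On the log2 scale the difference of the average was 0.30 (SE 0.50, adjusted p = 0.816 by limma). It was 0.90 (SE 0.58, adjusted p = 0.976) in Snord67KO-1 and -0.29 (SE 0.58, adjusted p = 0.817) in Snord67KO-2. At U3 position 56 the log2 difference was -1.97 (SE 0.96, adjusted p = 0.406) for the average, and at U1 position 70 it was 0.88 (SE 0.91, adjusted p = 0.679). By this test 0 of 2092 positions were called (0.0%) in each comparison, and an unadjusted p under 0.05 was found at 275 with the clones averaged, 58 for the first clone and 465 for the second. At U3 position 56 and U1 position 70 the score was the count itself in each library, apart from the 0 counts set to 1, so it was not scaled for depth. At U3 position 95 it was also the count itself in 4T1 WT replicates 2 and 3, Snord67KO-1 replicate 1 and Snord67KO-2 replicates 1 and 2. In the other libraries the neighbors had at most 3 counts. The score of Snord67KO-2, which had the 3 lowest library totals, therefore cannot be set against its CPM.

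Genes whose proteins work with U3 were also described. Of 45 U3 snoRNP and small subunit processome proteins, 31 had enough counts, and for the average of both clones 1 rose and 7 fell, with a median log2 difference of -0.53 against -0.05 over all genes tested, of which 6.19% rose and 5.86% fell. Without 4T1 WT replicate 2, 0 of 29 rose and 2 fell, with a median of -0.44. In Snord67KO-1, 1 rose and 8 fell, where 10.1% of all genes rose and 8.2% fell, and in Snord67KO-2, 0 were called in either direction. Fbl, the methyltransferase of box C/D particles, had 87.9 ± 57.6 CPM (mean ± SD of 3 libraries) in 4T1 WT, and 35.4 ± 7.57 and 37.4 ± 8.94 in the first and second clone (log2 difference of the average -1.12, adjusted p = 0.0141 by edgeR's quasi-likelihood test). Nat10, an RNA acetyltransferase of the processome, had a log2 difference of -1.74 (adjusted p = 0.00836), with a WT spread as wide as the mean at 92.3 ± 93.9 CPM, and Pdcd11, a ribosome assembly factor, had -1.13 (adjusted p = 0.0355). Wdr36, another processome protein, rose by 0.74 (adjusted p = 0.0215).

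The list of 17 intercellular bridge and midbody proteins was a general one and not a list of TEX14 partners. Of these, 15 had enough counts, and 1 rose and 0 fell for the average, with a median log2 difference of 0.17 against -0.05 over all genes. With 6.19% of all genes called higher, 1 call among 15 is near the background and is not a result about the list. This was the septin Sept9, with 28.7 ± 5.22 CPM (mean ± SD of 3 libraries) in 4T1 WT, and 77.6 ± 15 and 53.7 ± 7.78 in the first and second clone (log2 difference 1.19, adjusted p = 0.0102 by edgeR's quasi-likelihood test). Prc1, a microtubule bundler of the spindle midzone, had a log2 difference of 0.89 (adjusted p = 0.0663), the scaffold protein Anln had 0.46 (adjusted p = 0.114) and the septin Sept7 had 0.38 (adjusted p = 0.187). In Snord67KO-1, 2 rose and 1 fell, where 10.1% and 8.2% of all genes did, and in Snord67KO-2, 0 were called. Without 4T1 WT replicate 2, 2 of 14 rose when the clones were averaged.

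A list of 20 box C/D and box H/ACA RNA genes, host genes and other noncoding RNA genes, such as Rmrp, was also described. Of these, 10 were listed in the table and 5 had enough counts. Their median log2 difference for the average was -0.75, against -0.05 over all genes. For the average, 0 were higher and 1 was lower, where 5.86% of all genes were lower. This was the snoRNA host gene Snhg5, with 185 ± 97.4 CPM (mean ± SD of 3 libraries) in 4T1 WT, and 61.1 ± 11.3 and 91.2 ± 22.4 in the first and second clone (log2 difference -1.18, adjusted p = 0.00307 by edgeR's quasi-likelihood test). Snhg3 had a log2 difference of -1.07 (adjusted p = 0.0663) and Gas5 had -0.46 (adjusted p = 0.0975). Rmrp, the RNA of RNase MRP and neither a box C/D nor a box H/ACA RNA, had -0.75 (adjusted p = 0.113), the same value as the list median. Without 4T1 WT replicate 2, 0 of 4 were higher and 2 lower. In Snord67KO-1, 3 fell, where 8.2% of all genes did, and in Snord67KO-2, 0 were called.

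The genes with the pattern most like that of the repeated sets were Antxr2 (Pearson r = 0.98), Npc2 (r = 0.97) and Sart3 (r = 0.97), by log2(CPM + 1) over the 9 libraries. Their mean levels, in the order WT, first clone and second clone, were 39.3, 110 and 60.2 CPM for Antxr2, 39, 119 and 59.7 for Npc2, and 76.8, 133 and 90.5 for Sart3. For the rest of Tex14 they were Park2 (r = 0.97), Dab2 (r = 0.97) and P4hb (r = 0.97). In all 6 genes Snord67KO-1 had the highest mean and 4T1 WT the lowest. These values describe 9 libraries that share their depth and group, and no test was made of them.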

How the data were processed

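RibOxi-seq was performed by the authors on poly(A)-enriched RNA of 4T1 cells. Per the labels and the methods, reads were trimmed with cutadapt, merged with pear and mapped (STAR and mm10 are named in the submitters' processing notes), and the deposited counts are whole numbers of 3′ ends at each genomic position, not normalized. The handling of reads with several places was not given in the sources used here, and the table gives no strand. The 9 control samples were not analysed here. Tex14, its sets and the gene lists were chosen with earlier results of these data known.

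Counts were divided by the total of the library (CPM). Groups were compared by two-sided exact permutation tests (12 in all, Benjamini-Hochberg adjusted). Positions and gene totals with 10 or more counts in 3 or more libraries were tested with edgeR 4.0.16 (quasi-likelihood, TMM, all 9 libraries), also with an offset from the remaining counts of the gene (50 or more), and Nm scores with limma 3.58.1, at an adjusted p of 0.05. A pseudocount of 0.5 was used in the log2 ratio. DESeq2 1.42.0, other scalings, filters, a replicate block and leaving out each replicate were the alternatives. Scripts were tested on simulated data. R 4.3.3 and Python 3.11.15 were used, with GENCODE M21. PCR copies are not marked, so intervals and the limit of 3 counts for a count of 0 cover counting error only.

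For named genes, the rule took all repeated sets, the 5 highest positions of the rest, up to 4 genes per list by the smallest p of the average, and the 3 genes most alike. One further list of cell type markers is not reported here.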

Additional observations from a re-analysis of the deposited data

How the results depend on the processing

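Over the alternatives, 235 of the values that answer a comparison were kept, 52 moved, 19 lost and 3 gained a call, and 15 reversed. For the exact permutation tests, kept means the same direction and side of the threshold. For the tests across positions and gene totals, kept means an equal or similar number of calls, and moved means another number. Direction and the features called were not compared there, and many of the kept values are comparisons without any call. Of the values of single positions or rows, 399 were kept, 11 lost and 4 gained a call, and 15 reversed. The cause was not tested for any of them, except where fewer libraries raise the smallest p of the exact test.

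For the repeated sets, the difference of both clones from 4T1 WT was 68.2 CPM (exact p = 0.0714) without mispriming positions and 9.54 (exact p = 0.429) with the U1 sets only, which gave -0.70 CPM in Snord67KO-2. With each replicate left out it was 63.2 to 86.0 CPM, and 8 of 9 such comparisons had a p above 0.05 in the exact test. For the rest of the gene the difference of both clones passed the exact test when Rn45s was left out of the total (50.3 CPM), with TMM-scaled totals (33.7 CPM) and without position 56 of Rnu3b4 (53.0 CPM). In Snord67KO-2 it was -1.61 CPM with sets of at least 5 counts, -0.55 CPM outside the small RNA genes, and -1.35 to 17.1 CPM with each replicate left out, negative without Snord67KO-2 replicate 3. The log2 ratio of repeated to rest was -0.0313 for both clones and -1.16 for Snord67KO-1 with the whole U3 and U1 genes against the positions outside them. Without position 56 of Rnu3b4 in the rest it was -0.80, -0.77 and -0.82 for both clones, Snord67KO-1 and Snord67KO-2, and 0.17, 0.19 and 0.15 when 4T1 WT replicate 2 was also left out. With each replicate left out it was -0.0697 to 0.35, -0.11 to 0.30 and -0.0263 to 0.39, with the lowest values without 4T1 WT replicate 1 and the highest without 4T1 WT replicate 2. The share of position 95 differed by 17.1 percentage points over all U3 counts, by -1.50 without position 56 (-3.12 in Snord67KO-2), and by 16.3 to 26.3 with each replicate left out.

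Of positions, DESeq2 called 12 with the clones averaged, 12 in Snord67KO-1 and 24 in Snord67KO-2. DESeq2 size factors in edgeR gave 0 for each clone, and a filter of at least 20 counts in all gave 0 for Snord67KO-2. With each replicate left out, 0 to 2, 0 to 5 and 0 to 0 positions were called. Of gene totals, DESeq2 called 389 for the average and 575 for Snord67KO-1, and 2061 and 436 were called in Snord67KO-1 and Snord67KO-2 with no filter. With each replicate left out, 436 to 762, 432 to 1087 and 54 to 309 gene totals were called, lowest for the average without 4T1 WT replicate 2. The test with the gene's remaining counts as offset and the test of the Nm score gave 0 calls under all 11 alternatives each.

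The call of the rest of Tex14 in Snord67KO-1 was also lost with DESeq2 (adjusted p = 0.108) and with no filter (adjusted p = 0.123). The call of the repeated sets in Snord67KO-1 was kept under all 13 alternatives, with an adjusted p of 0.00426 to 0.0348, and in Snord67KO-2 none was made, at 0.0544 to 0.525.

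The log2 Nm difference of U3 position 95 for the average was -0.047 with 0 set to 0.5, and -0.00551 to 0.56 with each replicate left out. The log2 difference of U1 position 70 relative to the rest in Snord67KO-2 was -0.15 with copies counted in the rest. With each replicate left out it was -0.24 to 0.66, that of U3 position 56 in Snord67KO-1 was -0.90 to 0.10, and those of the Nm score of U1 position 70 were -0.18 to 1.34 for the average and -1.30 to 0.69 in Snord67KO-2. As a row, with each replicate left out, the U1 gene had -0.50 to 0.57 in Snord67KO-2. The positions outside had -4.59 to 1.04 in Snord67KO-2 and -1.16 to 1.82 for the average, lowest without Snord67KO-2 replicate 2.

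Same-numbered samples deviated together in some pairs only, with correlations of -0.16 to 0.35. The highest were 0.35 for replicate 2 and 0.30 for replicate 3 of 4T1 WT and Snord67KO-1. Pairs with different numbers had -0.40 to 0.20. Whether the numbers pair the samples is therefore not settled, and the main tests treat them as unpaired. A replicate block gave 0 called positions in each comparison and 871, 1267 and 280 gene totals.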
